A study of Mus musculus with 5 samples.

Results

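The genes described here are 9 that are used as markers of working heart muscle or of its conduction: the natriuretic peptide genes *Nppa* and *Nppb*, the calcium pump inhibitors *Pln* and *Sln*, the connexin genes *Gja1*, *Gja5* and *Gjc1*, the transcriptional co-activator gene *Cited1* and the peptide-amidating enzyme gene *Pam*. They were taken by name, with earlier results of these data known, and are 9 of the 13486 genes with a tag in any of the 5 libraries. Tags were found for 8 of the 9 in the AVC (atrio-ventricular canal), for 9 in the OFT library (outflow tract), for 8 in the atria, for 8 in the ventricular library and for 9 in the *Twist1* null AVC.

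In the embryonic heart the atria and ventricles form as fast-conducting working muscle, while the muscle of the AVC and OFT stays slow-conducting and overlies the endocardial cushions, from which the valves form. The T-box repressors TBX2 and TBX3 are known to hold chamber genes down in AVC muscle, and *Nppa*, *Gja1* and *Gja5* are among the genes they are known to repress. Connexins build the gap junctions through which the electrical impulse passes from cell to cell, phospholamban (*Pln*) and sarcolipin (*Sln*) restrain the pump that refills the sarcoplasmic reticulum with calcium, and the natriuretic peptides are hormones that the muscle secretes.

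The study asked which genes mark the valve-forming regions and which of them depend on TWIST1, a basic helix-loop-helix transcription factor of cushion mesenchyme. Hearts were dissected at E10.5, which is Theiler stage 17. The AVC, OFT, atria and ventricles were from wild type C57BL/6 embryos (C57BL/6J females in the study's methods), with 25 embryos pooled for each of the first 2 regions and 20 for each chamber. The fifth library was from 8 pooled AVCs of *Twist1* null embryos on the ICR strain, so in that comparison genotype and strain cannot be told apart. Each group is 1 library. A p-value below therefore compares 2 libraries at an assumed spread and not 2 conditions, and no difference has a replicate check.

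Tag-seq reads the 17 bases that follow an NlaIII site (CATG) in poly(A)-primed cDNA, and each distinct sequence, a tag type, comes with its count. The members were measured by 32 tag types. The tags that carry most of each gene's count are printed with the NlaIII site in capitals and the sequenced bases in lower case, because every level given here is the number of times such a sequence was read. Positions are from a match of the tags to GRCm38 transcripts, since the deposited lists hold no coordinates, and the labels name mm9.
Nppa tag type 1: CATGcccccgcaggccctgag
Nppa tag type 2: CATGggctccttctccatcac
Nppb tag type 1: CATGgatctcctgaaggtgct
Pln tag type 1: CATGgctcataaatttctttc
Pln tag type 2: CATGctgagagaaacgtgacg
Sln tag type 1: CATGttttctaaagatgctgt
Gja1 tag type 1: CATGtaatgtagacctagccc
Gja1 tag type 2: CATGgatctttgtggtgtggg
Gja5 tag type 1: CATGagaagttcaggagggtg
Gja5 tag type 2: CATGcactatagccagaagcc
Gjc1 tag type 1: CATGttctcagcaataatgca
Gjc1 tag type 2: CATGaagaggatcctatgatg
Cited1 tag type 1: CATGcaaaactgggtcaccgc
Pam tag type 1: CATGgtagcgctcaaagccct
Pam tag type 2: CATGaccgaaagctcgagtcg

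The libraries held 4223810 to 12977237 listed tags, and levels are given as tags per 1000000 listed tags (TPM). Intervals are exact 95% Clopper-Pearson intervals and cover counting error only. A tag type is listed only when it was read more than 5 times, which sets a limit of 0.462 TPM in the deepest library and 1.42 TPM in the shallowest. Haemoglobin genes took 22.0% of the atrial tags, 4.75% of the ventricular tags, 3.05% of the null tags, 0.433% of the OFT tags and 0.367% of the AVC tags. The 8 pan-cardiomyocyte genes summed to 7406 TPM in the atria and to between 14185 and 16666 TPM elsewhere. *Nkx2-5*, a defining cardiomyocyte factor, was not listed in the atria or the ventricles, although 14 of 15 cardiomyocyte markers were listed in each. The 10 cushion mesenchyme markers summed to 3182 TPM in the AVC library, 3860 in the OFT library, 278 in the atria, 301 in the ventricular library and 1003 in the null AVC. *Twist1* itself was at 918 TPM in the AVC library, 299 in the OFT library, 63.4 in the atria and 55.9 in the ventricular library, and at 4.55 TPM (59 tags) in the null AVC.

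**Figure D1:**
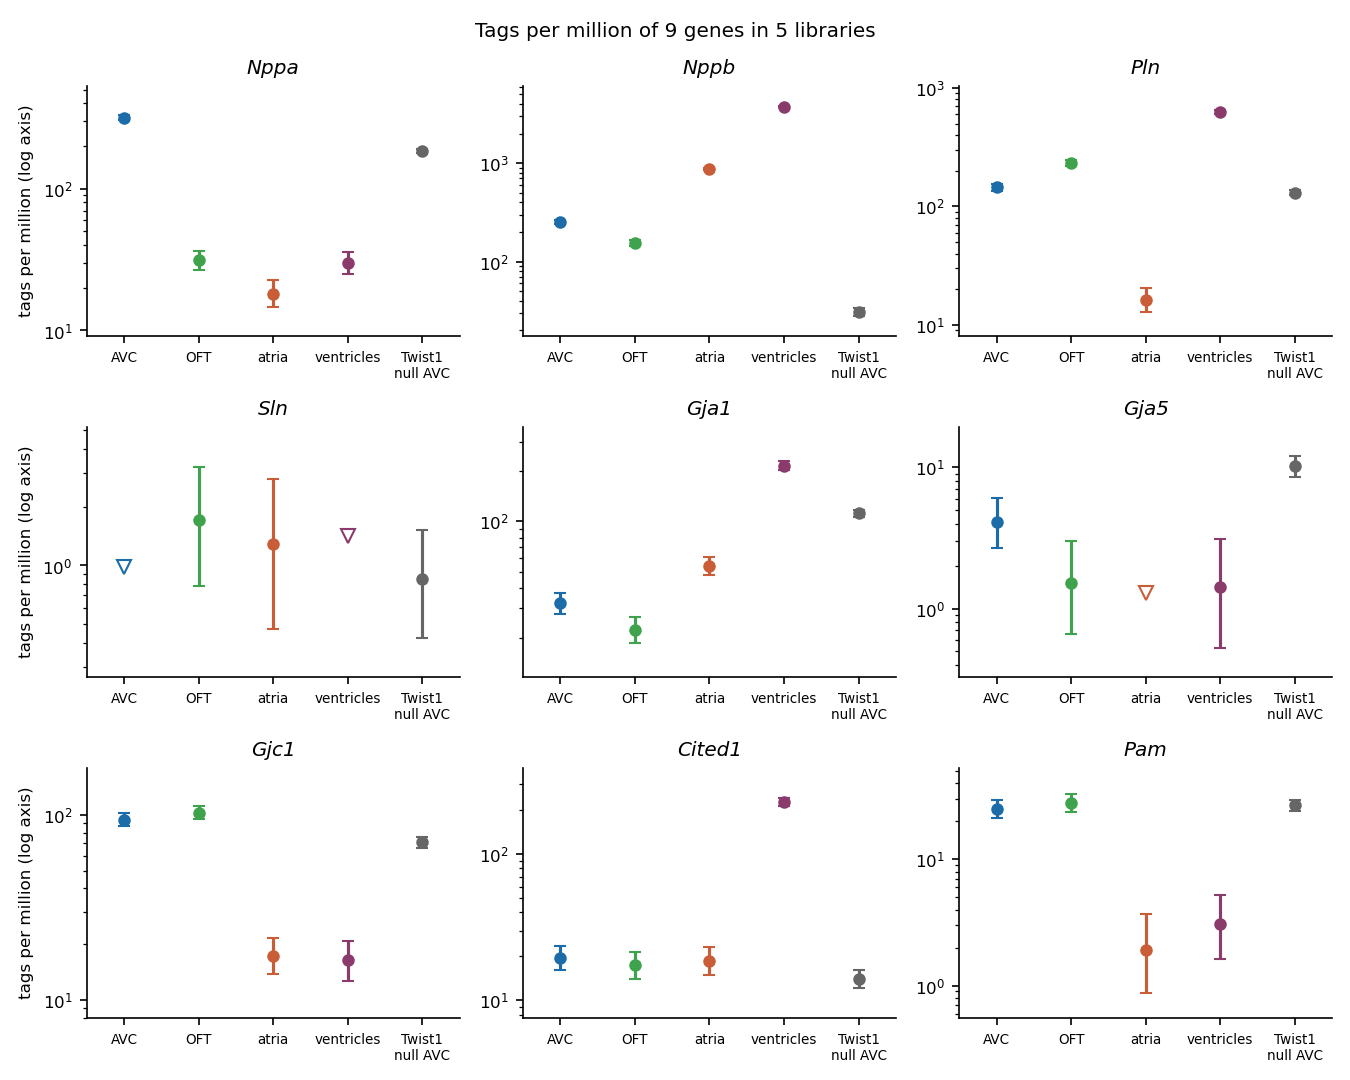
TPM (log axis, its range set per gene) of each gene in each of the 5 libraries, as points with exact 95% counting intervals. An open triangle stands at the listing limit of a library in which the gene was not listed. *Nppa* and *Gja5* have their 2 highest points in the canal libraries, *Gjc1* and *Pam* are high in the 3 cushion-bearing libraries, and *Nppb*, *Pln*, *Gja1* and *Cited1* are highest in the ventricles.

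The 9 genes did not behave as a group. Between the AVC and the summed chambers, 4 of the 9 were higher (*Nppa*, *Gja5*, *Gjc1* and *Pam*) and 3 were lower (*Nppb*, *Gja1* and *Cited1*) by edgeR's exact test at an adjusted p under 0.05, where 35.6% of all genes were called higher and 5.53% lower. A count of 4 higher thus lies near the share of all genes. Few genes were called lower, but the 9 were chosen with earlier results of these data known. Their 3 lower genes therefore give no test of the members as a set. Against the atria alone 1 member was lower in the AVC. Between the OFT and the chambers 2 of 9 were higher (*Gjc1* and *Pam*) and 3 were lower (*Nppb*, *Gja1* and *Cited1*), against 34.1% and 6.77% of all genes. These comparisons use the same chamber libraries.

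The ventricles were higher than the atria in 2 of 9 genes (*Pln* and *Cited1*) and lower in none, against 3.47% and 2.8% of all genes. Between the OFT and the AVC 1 gene was lower (*Nppa*) and none was higher, against 1.88% and 1.24%. Between the null AVC and the AVC 1 gene was lower (*Nppb*) and none was higher, against 3.93% and 5.06%. The median log2 ratio of the members with tags on both sides was 0.71, 0.40, 2.00, -0.35 and -0.28 in these comparisons in the order given, and that of all genes was 1.23, 1.07, 0.31, -0.10 and -0.16.

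The all-gene medians show that the 2 chamber comparisons were tilted towards higher values in the AVC and OFT. TMM normalization, which centres the ratios of most genes, shifted every log2 ratio by -0.95 in the AVC comparison and by -0.86 in the OFT library comparison, and then 19.4% of genes were higher and 11.9% lower in the AVC, and 20% and 12.2% in the OFT library. For the ventricles against the atria TMM gave 2.43% higher and 3.61% lower, for the OFT against the AVC 1.25% and 1.84%, and for the null AVC 6.26% and 3.06%. Under TMM the AVC kept 2 higher members (*Nppa* and *Pam*) and had 4 lower ones, with *Pln* added to the others. In the OFT 1 member was higher and 3 were lower under TMM, and the counts of the other comparisons stayed as they were. The study called genes at an unadjusted p under 0.05, but the scaling inside its test is not stated. With that threshold and the listed totals used here, the member counts against the chambers were those of the adjusted test. Of all genes 43.4% were then higher and 8.12% lower in the AVC, and 40.6% and 8.88% in the OFT library. These shares are not those of the study's own test. By that rule 4 members were higher in the ventricles than in the atria (11.1% of all genes, and 9.03% lower), 1 higher and 1 lower in the OFT than in the AVC (5.22% and 7.35%), and 2 higher and 1 lower in the null AVC (11.9% and 12.7%).

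**Figure D2:**
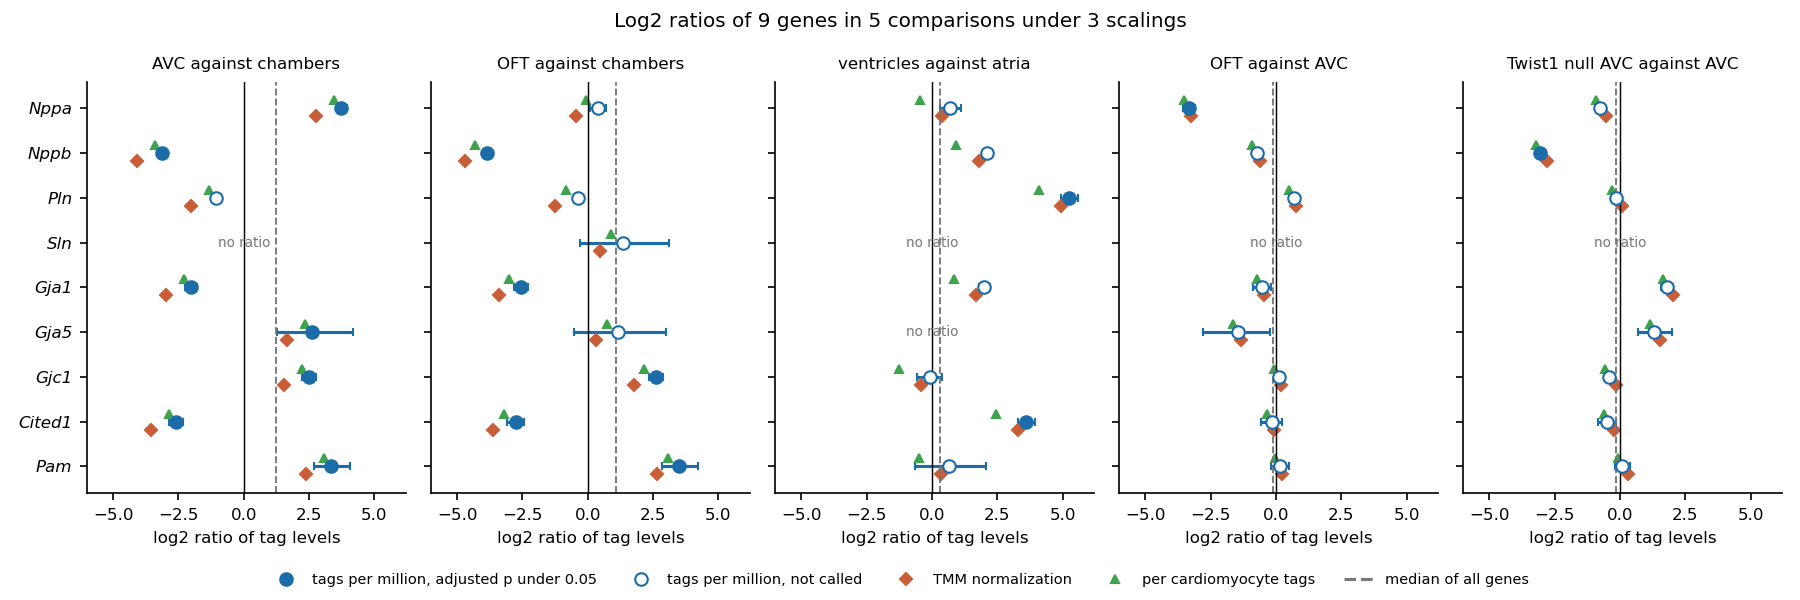
Log2 ratios of the 9 genes in the 5 comparisons. Circles are ratios of TPM with counting intervals (filled where the adjusted p is under 0.05), diamonds are ratios with TMM normalization, triangles are ratios per tag of 8 cardiomyocyte genes, and the dashed line is the median of all genes. *Nppb*, *Gja1* and *Cited1* lie left of 0 in both chamber comparisons under each of the 3 scalings, and *Nppa* lies right of 0 in the AVC but on both sides of 0 in the OFT library.

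*Nppa*, the gene of atrial natriuretic peptide, had its highest level in the canal. It reached 316 TPM in the AVC (95% interval 302 to 331, 1922 tags) and 184 TPM in the null AVC (177 to 192). The OFT held 31.3 TPM (26.7 to 36.5), the ventricles 29.8 TPM (24.9 to 35.5) and the atria 18.2 TPM (14.5 to 22.5). The 2 canal libraries stood apart from the rest, the intervals of the OFT and the ventricles overlapped, and the atria were lowest. *Nppa* was thus lower in both chambers than in the canal, against its use as a chamber marker.

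Against the chambers the AVC was 13.3-fold higher in *Nppa* (log2 3.74, counting interval 3.53 to 3.95, adjusted p = 5.05e-05 by edgeR's exact test), and 81.5% of all genes had a smaller ratio. It was higher against each chamber alone, with a log2 ratio of 4.12 against the atria and 3.41 against the ventricles. The OFT was 10.1-fold lower than the AVC (log2 -3.34, adjusted p = 0.00397), and its log2 ratio to the chambers was 0.40 (adjusted p = 0.699). That last ratio turned to -0.46 with TMM normalization and to -0.05 per cardiomyocyte tag. The null AVC differed from the AVC by a log2 ratio of -0.78 (adjusted p = 0.529), and the ventricles from the atria by 0.71 (adjusted p = 0.766).

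Most *Nppa* tags were of tag type 1, from the 3'-most NlaIII site in the coding sequence at chr4:148001105-148001125 (GRCm38, plus strand). It was read 1878 times in the AVC, 156 in the OFT library, 85 in the atria, 115 in the ventricular library and 2359 in the null. Of its 17 bases 14 are G or C, and tag types with that many had a median log2 ratio of 1.68 between the AVC and the chambers, against 0.91 over all tag types. With an offset for GC content the *Nppa* ratio was 2.69 in the AVC (adjusted p = 0.00172) and -1.08 in the OFT library (adjusted p = 0.218), and with TMM as well it was 1.74 (adjusted p = 0.0475) and -1.94 (adjusted p = 0.0275). Tag type 2, at chr4:148000834-148000854, holds the start codon. It has 10 G or C bases and was read 44 times in the AVC, 9 in the OFT library, 11 in the ventricular library and 32 in the null, with a log2 ratio of 2.55 between the AVC and the chambers and of -2.08 between the OFT and the AVC. Both tag types were therefore higher in the AVC than in the OFT and in the chambers.

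*Nppb*, the gene of brain natriuretic peptide, was higher in both chambers than in the AVC or OFT, unlike *Nppa*. The ventricles held 3754 TPM (95% interval 3696 to 3813, 15856 tags), the atria 871 TPM (844 to 898), the AVC 255 TPM (242 to 268), the OFT 156 TPM (145 to 167) and the null AVC 30.7 TPM (27.8 to 33.9). No neighbours in that order had overlapping intervals, and the highest level was 122 times the lowest.

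Against the chambers *Nppb* was lower in the AVC by 8.79-fold (log2 -3.14, adjusted p = 0.000461) and in the OFT by 14.4-fold (log2 -3.85, adjusted p = 2.71e-05). Against the atria alone the log2 ratios were -1.77 and -2.48 and against the ventricles alone -3.88 and -4.59, and all 4 passed the test. The ventricles had a log2 ratio of 2.11 to the atria (adjusted p = 0.0662), which was not called and fell to 0.94 per cardiomyocyte tag. The OFT and the AVC differed by -0.71 (adjusted p = 1).

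The null AVC was 8.29-fold lower than the AVC in *Nppb* (log2 -3.05, counting interval -3.21 to -2.89, adjusted p = 0.00537), with 3.43% of all genes at a smaller ratio. It was the member with the clearest difference in that comparison, with 1548 tags in the AVC and 399 in the deeper null library. The 8 pan-cardiomyocyte genes summed to 14185 TPM in the AVC and to 15713 TPM in the null, and *Nppb* was at 17.96 tags per 1000 of their tags in the AVC and at 1.96 in the null. The 15 cardiomyocyte markers summed to 26245 TPM in the AVC and to 23078 TPM in the null, and the 20 chamber muscle genes to 15729 and 10904 TPM. The median log2 ratio of the 8 genes was -0.29. The cushion mesenchyme markers and the haemoglobin share, given above, also differed between these libraries, and their part in the result was not tested.

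All *Nppb* tags came from 1 tag type, since the reference transcript has a single NlaIII site, at chr4:147985975-147985995 (GRCm38, plus strand). The tag reads through the start codon. Tag types that start with G had a median log2 ratio of -0.61 between the null AVC and the AVC, so this tag moved further than its class. *Nppb* ends 13516 bases before *Nppa* starts, and both are on the plus strand of chromosome 4. On the scale of the 5 library levels these neighbours were far apart, with a distance of 7.87 where the pairs of members ranged from 0.925 to 8.14.

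Phospholamban, the product of *Pln*, inhibits the sarcoplasmic reticulum calcium pump until it is phosphorylated. Its transcript set the 2 chambers apart. The ventricles held 623 TPM (95% interval 600 to 648, 2633 tags) and the atria 16.3 TPM (12.8 to 20.4, 76 tags). Between them lay the OFT with 234 TPM (221 to 247), the AVC with 145 TPM (136 to 155) and the null AVC with 130 TPM (124 to 136), of which the last 2 had overlapping intervals.

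*Pln* was 38.3-fold higher in the ventricles than in the atria (log2 5.26, counting interval 4.93 to 5.61, adjusted p = 4.93e-06), and 37.4 against 2.20 tags per 1000 cardiomyocyte tags. Because the chambers differed so much, the ratio of the valve-forming regions to them turned with the chamber used. The AVC had a log2 ratio of -1.07 to the summed chambers (adjusted p = 0.224), of 3.16 to the atria alone (adjusted p = 0.000529) and of -2.10 to the ventricles alone (adjusted p = 0.0172). For the OFT the values were -0.38 (adjusted p = 0.701), 3.84 (adjusted p = 3.56e-05) and -1.42 (adjusted p = 0.111). The OFT and the AVC differed by 0.69 (adjusted p = 1) and the null AVC and the AVC by -0.16 (adjusted p = 0.930).

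Of 9 *Pln* tag types, 8 lie in the 3' UTR and 1 in the 5' UTR. Tag type 1, at chr10:53344245-53344265, and tag type 2, at chr10:53345722-53345742, are each the 3'-most site of a transcript, with different ends. Tag type 1 was read 543 times in the AVC, 897 in the OFT library, 59 in the atria, 2140 in the ventricular library and 1205 in the null, and tag type 2 was read 297, 302, 17, 448 and 349 times. Both rose from the atria to the ventricles, with log2 ratios of 5.32 and 4.86. Between the AVC and the chambers the first had a ratio of -1.47 and the second of -0.10, and between the null AVC and the AVC they had 0.06 and -0.86. Tag type 3 begins with T and was read 9, 17, 0, 17 and 122 times in the same order of libraries, and tag type 4 was read 20 times in the AVC and 11 in the ventricular library only. The 2 transcript ends were therefore not read in one ratio in all libraries, a difference that has no test here.

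Sarcolipin, a smaller relative of phospholamban known from atrial muscle, stayed at the listing limit. Its single tag type, in the 3' UTR at chr9:53853712-53853732, was read 9 times in the OFT, 6 times in atrial tissue and 11 in the null AVC, and it was not listed in the AVC or the ventricles. These are 1.71, 1.29 and 0.848 TPM, with overlapping intervals. No ratio is read from these counts, and differences between the libraries were not detectable at this depth.

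**Figure D3:**
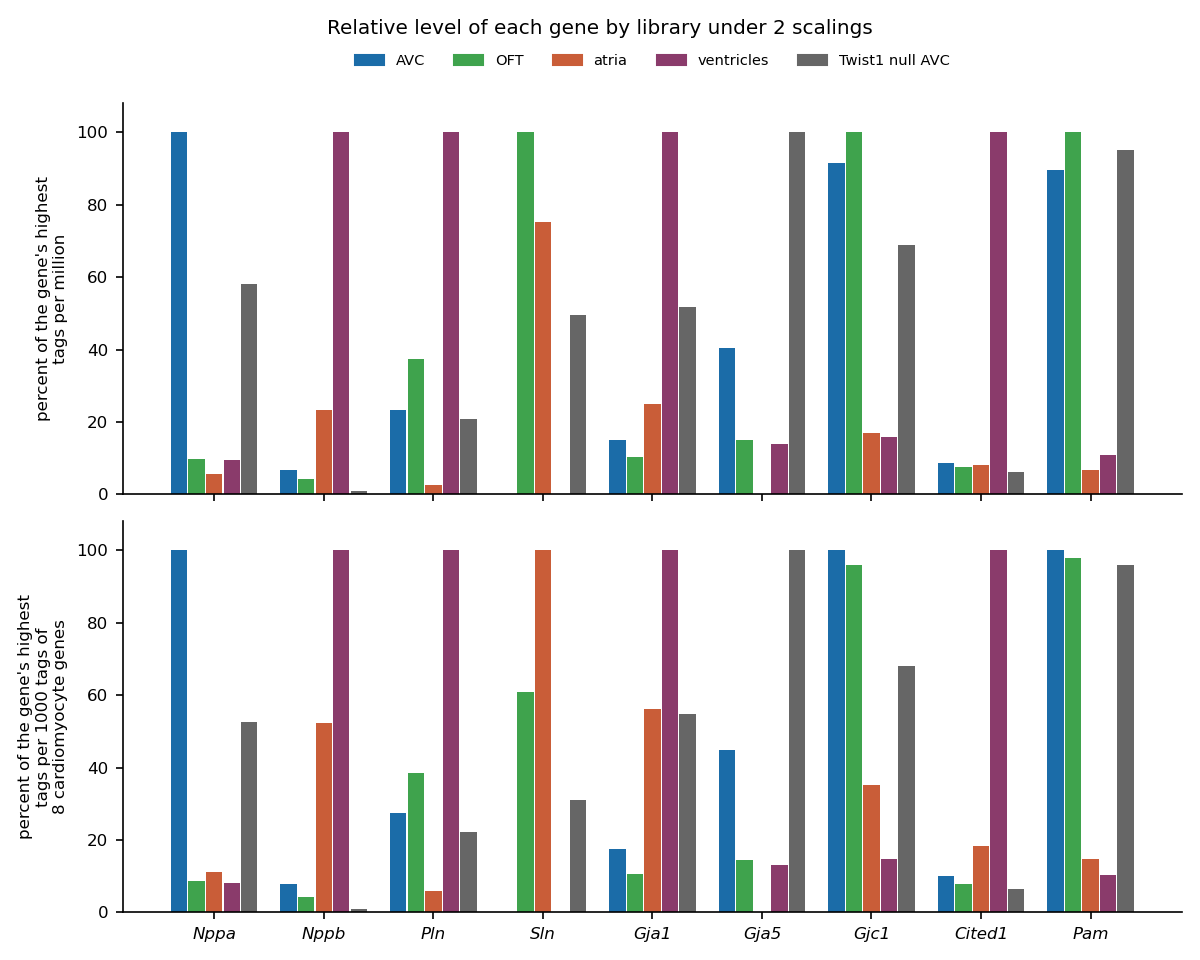
Level of each gene in each library as a percent of its highest library, in TPM (upper panel) and in tags per 1000 tags of 8 cardiomyocyte genes in the same library (lower panel), with the axes starting at 0. The highest library is the same in both panels for *Nppa*, *Nppb*, *Pln*, *Gja1*, *Gja5* and *Cited1*, while the atrial bars, where the gene was listed, are taller in the lower panel, and the bars of *Sln* rest on 6 to 11 tags.

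The connexin genes took 3 different patterns. *Gja1*, whose product is the main gap junction protein of the ventricles, was highest in the ventricles with 216 TPM (95% interval 202 to 230, 912 tags). The null AVC followed with 112 TPM (106 to 117), then the atria with 54.0 TPM (47.5 to 61.1), the AVC with 32.3 TPM (27.9 to 37.1) and the OFT with 22.4 TPM (18.5 to 26.8). No neighbours in this order overlapped, and the null AVC lay above the atria in TPM. Per 1000 tags of the 8 cardiomyocyte genes these 2 turned, with 7.29 in the atria and 7.10 in the null AVC.

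*Gja1* was lower than in the chambers by 4.06-fold in the AVC (log2 -2.02, adjusted p = 0.0223) and by 5.84-fold in the OFT (log2 -2.55, adjusted p = 0.00458). Without tags that begin with T neither was called, with log2 ratios of -1.55 (adjusted p = 0.0796) and -1.66 (adjusted p = 0.0681). Against the atria alone neither was called either, with log2 ratios of -0.74 (adjusted p = 0.422) and -1.27 (adjusted p = 0.154). The ventricles had a log2 ratio of 2.00 to the atria (adjusted p = 0.0846), which was not called. The null AVC had a log2 ratio of 1.79 to the AVC (counting interval 1.57 to 2.01), with an exact p of 0.0165 and an adjusted p of 0.105, so this difference did not pass the adjusted test.

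The tag types of *Gja1* differed in size of change. Tag type 1, the 3'-most site in the 3' UTR at chr10:56390335-56390355, was read 145 times in the AVC, 77 in the OFT library, 208 in the atria, 704 in the ventricular library and 1185 in the null. It begins with T, and tag types beginning with T had a median log2 ratio of 0.91 between the null AVC and the AVC while those beginning with A, C or G had -0.61, -0.37 and -0.61. Tag type 2, at chr10:56389642-56389662 in the same UTR, begins with G and was read 38, 41, 44, 175 and 145 times. Between the null AVC and the AVC tag type 1 had a log2 ratio of 1.94 and tag type 2 of 0.84, both above the median of their class. Without tags beginning with T the *Gja1* ratio was 0.91 (adjusted p = 0.449). Tag type 3, which begins with A, was read 7 times in the AVC and 59 in the null, and tag type 4 was read 15 times in the ventricles and 45 in the null.

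*Gja5*, whose product is the fast-conducting connexin of the atria and the conduction system, was read very little. It had 132 tags in the null AVC (10.2 TPM, 95% interval 8.51 to 12.1), 25 in the AVC (4.11 TPM, 2.66 to 6.07), 8 in the OFT library (1.52 TPM) and 6 in the ventricular library (1.42 TPM), and it was not listed in the atria. The null AVC stood above the rest, and the intervals of the AVC and OFT, of the OFT and ventricles, and of the ventricles and atria overlapped. Between the AVC and the chambers the log2 ratio was 2.61 with a wide counting interval of 1.29 to 4.18 (adjusted p = 0.0330), and this call was lost with TMM normalization (log2 1.66, adjusted p = 0.203) and against the ventricles alone (log2 1.53, adjusted p = 0.206). The null AVC had a log2 ratio of 1.31 to the AVC (adjusted p = 0.300).

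Tag type 1 of *Gja5*, in the 3' UTR at chr3:97053256-97053276, gave all of its tags except 26 in the null, which came from tag type 2 in the coding sequence at chr3:97051570-97051590. A further listed tag type, of which 15 of the 17 bases are adenines, matches the end of 20 genes, *Gja5* among them, and was counted for none. It was read 156 times in the AVC, 227 in the OFT library, 225 in the atria, 280 in the ventricular library and 173 in the null, which is more than all *Gja5* tags in each library. If it is counted, the log2 ratio between the AVC and the chambers turns to -0.95 (adjusted p = 0.291).

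*Gjc1*, whose product forms the low-conductance junctions of the early heart tube, was high in both valve-forming regions. It had 103 TPM in the OFT library (95% interval 94.4 to 112, 542 tags), 94.1 TPM in the AVC (86.6 to 102), 71.0 TPM in the null AVC (66.5 to 75.7), 17.4 TPM in the atria (13.8 to 21.6) and 16.3 TPM in the ventricular library (12.7 to 20.7). The OFT and the AVC overlapped, as did the 2 chambers, and the TPM fell into a high and a low set with the null AVC in the high one. The null tags were all of 1 tag type, which begins with T.

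*Gjc1* was 5.58-fold higher in the AVC than in the chambers (log2 2.48, adjusted p = 0.00560) and 6.10-fold higher in the OFT (log2 2.61, adjusted p = 0.00371). Relative to the all-gene medians these ratios were 1.25 and 1.54, and with TMM normalization neither was called (log2 1.53, adjusted p = 0.0987 and log2 1.75, adjusted p = 0.0571). The ventricles and atria differed by -0.09 (adjusted p = 1), the OFT and AVC by 0.13 (counting interval -0.04 to 0.30, adjusted p = 1), and the null AVC and AVC by -0.41 (adjusted p = 0.778).

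Tag type 1 of *Gjc1*, the 3'-most site in the 3' UTR at chr11:102799772-102799792 (minus strand), was read 502 times in the AVC, 482 in the OFT library, 81 in the atria, 69 in the ventricular library and 921 in the null. The other 5 tag types were listed in the AVC or OFT only, with 26 and 24 tags for tag type 2, 19 and 12 for tag type 3 and 15 and 7 for tag type 4. Tag types 2, 3 and 4 lie in the coding sequence, at sites further from the poly(A) tail. They were not listed in the null although that library is the deepest. Tag type 1 begins with T. Its log2 ratio between the null AVC and the AVC was -0.22, where tag types beginning with T had a median of 0.91. Without tags beginning with T, *Gjc1* had no listed tag in the null and no ratio to the AVC.

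*Cited1*, a transcriptional co-activator without a DNA-binding domain of its own, was highest in the ventricles. It had 228 TPM there (95% interval 214 to 243, 963 tags), against 19.6 TPM in the AVC (16.2 to 23.4), 18.6 in the atria (14.9 to 23.0), 17.5 in the OFT library (14.1 to 21.4) and 14.02 in the null AVC (12.1 to 16.2). Each of the 4 lower libraries overlapped its neighbour in the order.

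The ventricles were 12.2-fold higher than the atria in *Cited1* (log2 3.61, counting interval 3.29 to 3.95, adjusted p = 0.00166). Its low ratio to the summed chambers, -2.59 in the AVC (adjusted p = 0.00371) and -2.76 in the OFT library (adjusted p = 0.00227), rested on the ventricles, since against the atria alone the log2 ratios were 0.07 and -0.09. The OFT and AVC differed by -0.17 and the null AVC and AVC by -0.48 (adjusted p = 0.738). All tags were of 1 tag type in the coding sequence at chrX:102247665-102247685 (minus strand), which was the 3'-most of 2 sites.

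*Pam* encodes the enzyme that amidates secreted peptides and is an abundant membrane protein of atrial secretory granules. Its transcript was low in the atria and in the ventricles alike. It had 28.1 TPM in the OFT library (95% interval 23.8 to 33.0), 26.7 in the null AVC (24.0 to 29.7) and 25.2 in the AVC (21.4 to 29.5), which overlapped in that order, and 3.08 TPM in the ventricular library (1.64 to 5.26) and 1.93 TPM in the atria (0.882 to 3.66), which overlapped as well.

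*Pam* was 10.2-fold higher in the AVC than in the chambers (log2 3.35, adjusted p = 0.000608) and 11.4-fold higher in the OFT (log2 3.51, adjusted p = 0.000300), and both stayed called with TMM normalization (log2 2.39, adjusted p = 0.0169 and log2 2.65, adjusted p = 0.00774). The chambers together gave only 22 tags. The OFT and AVC differed by 0.16, and the null AVC and AVC by 0.09 (counting interval -0.19 to 0.37). Tag type 1, in the 3' UTR at chr1:97821542-97821562 (minus strand), was read 132 times in the AVC, 120 in the OFT library, 9 in the atria, 13 in the ventricular library and 257 in the null, and tag type 2, in the coding sequence, 21 times in the AVC, 20 in the OFT library and 90 in the null. Tag type 3 was read 8 times in the OFT.

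**Figure D4:**
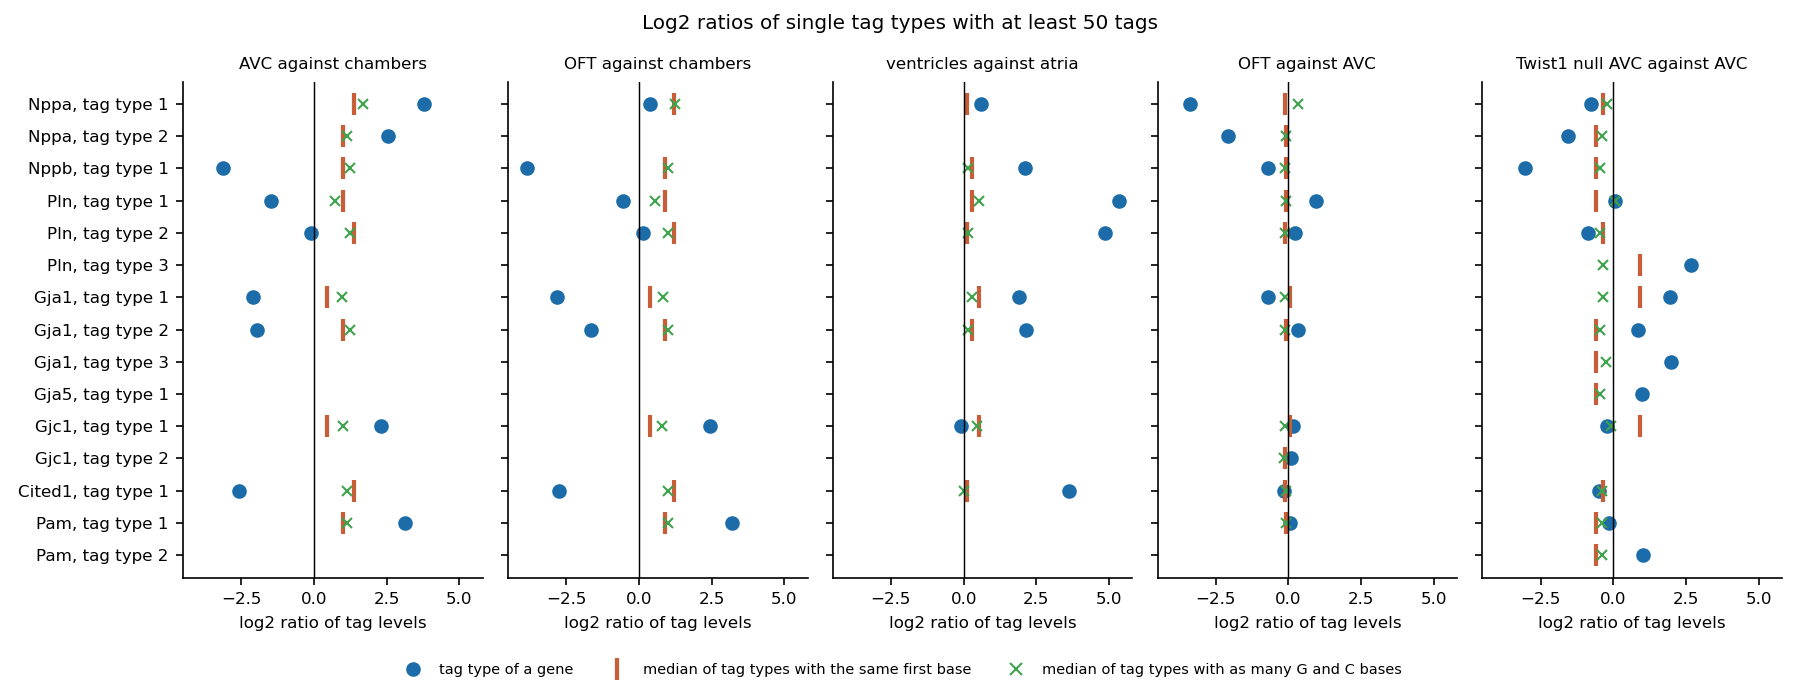
Log2 ratios of single tag types with at least 50 tags in a comparison (circles), beside the median of all such tag types with the same first base (bars) and with the same number of G and C bases (crosses). In the AVC and chamber comparison the tags of *Nppa*, *Gjc1* and *Pam* lie above both medians, and those of *Nppb*, *Pln*, *Gja1* and *Cited1* lie below both. In the null AVC the bar stands at 0.91 for tag types that begin with T.

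Sums of cell type markers differed between the libraries, in the direction of several of these values. Whether cell composition differed was not tested. In bulk tissue fewer cells of a type and less RNA per cell cannot be told apart. Per 1000 tags of the 8 cardiomyocyte genes, *Nppa* was at 22.3 in the AVC, 11.7 in the null, 2.46 in the atria, 1.94 in the OFT library and 1.79 in the ventricular library. On the same scale *Nppb* was at 225 in the ventricular library and 118 in the atria, while the AVC had 17.96 and the OFT 9.64, and *Gja1* at 13.0 and 7.29 against 2.27 and 1.39. *Gjc1* was at 6.64 in the AVC, 6.37 in the OFT library, 2.34 in the atria and 0.980 in the ventricular library, and *Pam* at 1.78, 1.74, 0.260 and 0.185. The scaling shifted each log2 ratio by -0.26 in the AVC and by -0.45 in the OFT library against the chambers. For the ventricles against the atria the shift was -1.17. Most of the scaling sum of the chambers came from *Actc1*, with 5782 of 7406 TPM (atria) and 13856 of 16666 (ventricles). Its part was smaller elsewhere, with 6283 of 14185 TPM (AVC) and 6370 of 16152 (OFT). To the chambers, the 8 genes had median log2 ratios of 1.63 (AVC) and 1.61 (OFT). These scaled levels therefore lean on *Actc1* and are not a full correction for muscle content.

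Cushion mesenchyme markers were higher in the AVC than in the chambers in 10 of 10 genes and in the OFT in 9 of 10, in the direction of *Gjc1* and *Pam*. With TMM normalization 7 were higher in each. Cardiomyocyte markers went the same way, with 9 of 15 higher and 0 lower in each, and 6 and 5 higher with TMM. Of all genes 35.6% were higher in the AVC and 34.1% in the OFT. Of the 10 endothelial and endocardial markers 3 were higher and 1 was lower in the AVC, beside 35.6% and 5.53% of all genes. Their sum was 577 TPM in the AVC library, 614 in the OFT library, 346 in the atria, 417 in the ventricular library and 647 in the null. The part of these cells in the levels of *Gjc1* and *Pam* was not tested. The erythroid markers went the other way, with 7 of 8 tested lower in the AVC, and 8 of 8 lower against the chambers in the OFT. Of all genes 5.53% and 6.77% were lower. Epicardial markers summed to 302 TPM in the AVC library, 133 in the OFT library, 351 in the atria, 330 in the ventricular library and 216 in the null, and neural crest and smooth muscle markers to 504, 1097, 289, 400 and 1027 TPM.

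The T-box repressors were highest in the canal, where *Nppa* was highest too. *Tbx2* was at 20.1 TPM in the AVC library, 8.73 in the OFT library and 21.1 in the null AVC and was not listed in either chamber. *Tbx3* was at 90.0 TPM in the AVC library, 14.6 in the OFT library, 7.29 in the atria and 121 in the null, and was not listed in the ventricles. Both were higher in the AVC than in the chambers (adjusted p = 6.47e-08 and 3.58e-06 by edgeR's exact test), and *Tbx3* was also lower in the OFT than in the AVC (log2 -2.62, adjusted p = 0.0351). Between the null AVC and the AVC their log2 ratios were 0.07 and 0.42, and neither passed the test.

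Among the other regulators, *Tbx5* was at 61.1 TPM in the AVC library, 5.13 in the OFT library, 9.86 in the atria, 10.4 in the ventricular library and 61.3 in the null. It was lower in the OFT than in the AVC by a log2 ratio of -3.57 (adjusted p = 0.00323), next to -3.34 for *Nppa*. *Tbx20* was at 338 TPM in the AVC library, 297 in the OFT library, 68.6 in the atria, 100 in the ventricular library and 239 in the null. *Nkx2-5* was at 14.3 TPM in the AVC library, 12.5 in the OFT library and 55.9 in the null, with a log2 ratio of 1.97 between the null and the AVC (adjusted p = 0.0786). The Notch target *Hey1* was higher in the chambers, with 157 (atria) and 83.1 TPM (ventricles) against 5.43 in the AVC (log2 -4.49, adjusted p = 3.80e-06), 12.1 in the OFT library and 9.86 in the null. *Hey2* was at 46.4 TPM in the ventricular library and 4.71 in the atria (log2 3.30, adjusted p = 0.00726), with 51.0 in the AVC, 84.1 in the OFT library and 70.4 in the null.

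**Figure D5:**
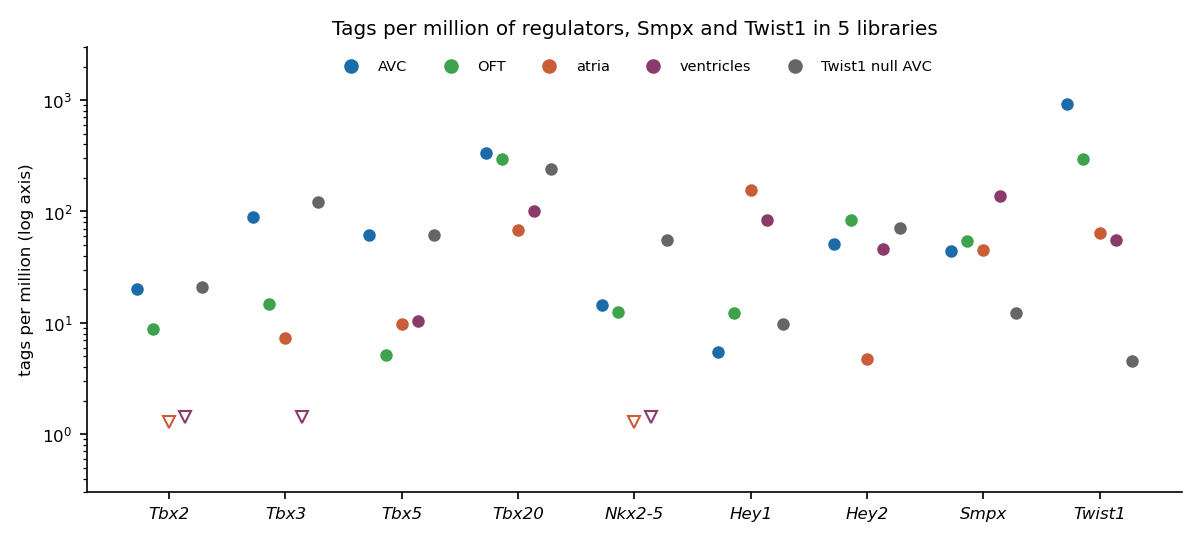
TPM (log axis) of regulators of chamber and canal identity, of the chamber muscle gene *Smpx* and of *Twist1* in the 5 libraries, with open triangles at the listing limit where a gene was not listed. *Tbx2*, *Tbx3* and *Tbx5* are highest in the 2 canal libraries, *Hey1* is highest in the atria at 157, and *Twist1* falls from 918 in the AVC to 4.55 in the null.

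Of the 24 tested regulators of chamber and canal identity 13 were higher and 1 lower in the AVC than in the chambers (*Hey1*), beside 35.6% and 5.53% of all genes, with a median log2 ratio of 1.85 against 1.23 over all genes. In the OFT 14 were higher and 4 lower, beside 34.1% and 6.77%. The 3 smallest p-values in the AVC were those of *Bmp2* (220 TPM, against 4.5 in the atria and none listed in the ventricles), *Tbx2* and *Gata4* (227 TPM, against 9.43 and 5.45). Between the OFT and the AVC 4 were lower and none was higher, beside 1.88% and 1.24% of all genes. The smallest p-values were those of *Tbx5*, *Nr2f2* (log2 -3.41) and *Bmp2* (log2 -3.02). In the OFT against the chambers *Nkx2-5*, *Nr2f2* (log2 -4.38) and *Tbx2* came first. Between the ventricles and the atria 3 of 22 tested were higher and 2 lower, beside 3.47% and 2.8% of all genes, led by *Hand1* (22.5 TPM and not listed), *Tbx3* and *Hey2*. None of the 24 passed the test between the null AVC and the AVC, where 656 genes were higher and 510 lower in all, and *Bmp2* came closest (log2 -2.11, adjusted p = 0.0538). With TMM normalization 9 regulators were higher and 3 lower in the AVC, beside 19.4% and 11.9% of all genes. In the OFT 9 were then higher and 5 lower, beside 20% and 12.2%, and 1 was higher in the null AVC, beside 6.26%.

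The natriuretic peptide pathway was measured by 10 of 12 listed genes. Between the AVC and the chambers 4 were higher and 1 was lower, with 35.6% of all genes higher and 5.53% lower and a median log2 ratio of 0.77 in the list and 1.23 over all genes, so the higher count lay near the background. Among them were *Npr2*, a receptor of the related C-type peptide, with 20.6 TPM in the AVC and none listed in the chambers, and *Furin*, a protease that cuts hormone precursors, with 35.4 TPM against 1.29 in the atria and none listed in the ventricles. *Prkg2* was lower, at 2.79 TPM in the atria and 3.55 in the ventricular library and not listed in the AVC. *Npr1*, the receptor of the products of *Nppa* and *Nppb*, was at 9.22 TPM in the AVC library, 18.03 in the OFT library, 25.1 in the atria, 23.7 in the ventricular library and 15.95 in the null, and *Corin*, the protease that activates the *Nppa* precursor, was at 9.88, 12.5, 21.9, 6.39 and 18.7 TPM. In the OFT 4 were higher, beside 34.1% of all genes, led by *Npr2*, *Furin* and *Prkg1* (log2 2.95). Against the AVC 2 were higher in the OFT, beside 1.24% of all genes. These were *Pde9a* (7.02 TPM) and *Prkg2* (3.80 TPM), neither of which was listed in the AVC. Between the ventricles and the atria none passed the test. *Pde9a* was the 1 gene of the list called higher in the null AVC (9.32 TPM). TMM normalization turned the counts to 2 higher and 4 lower in the AVC, beside 19.4% and 11.9% of all genes. In the OFT it turned them to 3 higher and 1 lower, beside 20% and 12.2%.

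Other connexins were close to the listing limit. Of 23 connexins and junction partners 9 were tested between the AVC and the chambers. Of these 2 were higher (*Panx1* at 4.28 TPM and *Gja3* at 2.96 TPM, neither listed in the chambers), beside 35.6% of all genes. In the OFT 4 were higher, beside 34.1% of all genes, among them *Gja3* at 2.85 TPM, *Gjb5* at 2.09 TPM and *Panx1* at 1.90 TPM. The junction partners were read far more, with *Pkp2* at 596 TPM in the AVC library, 1243 in the OFT library, 278 in the atria, 399 in the ventricular library and 419 in the null, and *Cdh2* at 102, 81.1, 33.2, 39.3 and 255 TPM. *Ctnna3* was the only one called between the ventricles and the atria (3.08 TPM and not listed), a call that TMM normalization removed, and none was called between the OFT and the AVC or between the null AVC and the AVC.

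Between the ventricles and the atria, where *Pln* differed most, 1 of 14 tested calcium cycling genes of the sarcoplasmic reticulum was higher and 1 lower. Of all genes 3.47% were higher and 2.8% lower. Of 15 tested, 7 were higher in the AVC than in the chambers and none was lower, where 35.6% of all genes were higher and 5.53% lower, and the median log2 ratio was 1.10 against 1.23 over all genes. *Atp2a2*, the pump that phospholamban inhibits, was at 1006 TPM in the AVC library, 689 in the OFT library, 1152 in the atria, 839 in the ventricular library and 1207 in the null, while *Pln* spanned 16.3 to 623 TPM over the same libraries. The smallest p-values in the AVC were those of *Calr* (289 TPM and not listed in either chamber), *Jph2* (64.4 TPM, against 1.42 in the ventricular library and none listed in the atria) and *Trdn* (95.1 TPM, against 3.21 and 11.4). *Calr* encodes an abundant chaperone that most cells make, so its listing at 0 in 2 libraries is a limit of these data. In the OFT 7 were higher and 1 was lower (*Atp2a1*), beside 34.1% and 6.77% of all genes. Between the ventricles and the atria *Fkbp1b* was higher, a call lost with TMM normalization, and *Atp2a1* was lower. Not called but in the direction of *Pln* were *Hrc* (log2 2.22), *Trdn* (log2 1.82) and *Camk2d* (log2 1.75). *Atp2a2* (log2 -0.46), *Asph* (log2 -0.15) and *Slc8a1* (log2 -0.07) went the other way, and the median of the list was 0.22. In the null AVC *Atp2a1* (29.3 against 4.44 TPM) and *Hrc* (57.9 against 10.2 TPM) were higher. With TMM normalization 5 were higher and 1 lower in the AVC, beside 19.4% and 11.9% of all genes.

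Of 20 other chamber muscle genes 9 were higher and 2 lower in the AVC, beside 35.6% and 5.53% of all genes. Their median log2 ratio was 0.40, below the 1.23 of all genes. With TMM normalization 5 were higher and 5 lower, beside 19.4% and 11.9% of all genes. *Myh6* led the AVC (2696 TPM, against 196 in the atria and 142 in the ventricular library), with *Irx4* and *Des*, and *Myh7* led the OFT (2625 TPM, against 5.79 and 191), with *Des* and *Mybphl*. *Myl2* set the ventricles apart (6196 TPM, against 55.5 in the atria), with *Myh7*, and *Stard10* the atria (272 against 14.7 TPM). *Smpx* was at 44.3 TPM in the AVC library, 54.5 in the OFT library, 45.2 in the atria, 137 in the ventricular library and 12.3 in the null, and passed the test in none of the 5 comparisons. In the null AVC *Stard10* was higher (log2 3.52) and *Myh6* lower (log2 -3.22, adjusted p = 0.00308), close to the -3.05 of *Nppb*. Genes of peptide processing and secretory granules, the setting in which *Pam* works, were few. Where listed on both sides, their median log2 ratios to the chambers were 2.03 (AVC) and 2.22 (OFT), against 1.23 and 1.07 over all genes. Of 7 tested, 3 were higher in the AVC than in the chambers (*Furin*, *Cpd* and *Cpe*), beside 35.6% of all genes. With TMM normalization 3 were higher there too, beside 19.4%. In the OFT library 4 were higher, among them *Furin*, *Pcsk6* and *Cpd*, beside 34.1% of all genes, and 2 with TMM normalization, beside 20%. None was called in the other comparisons.

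Genes of like pattern were sought by the distance between centred log2(TPM + 1) values over the 5 libraries, among 10207 genes with at least 100 tags. *Gjc1* had the closest neighbours, *Heg1* (distance 0.171, from 18.7 TPM in the ventricular library to 128 in the OFT library), *Fbxl15* (0.197) and *Pigo* (0.207). *Pam* lay next to *Cpsf2* (0.245), the endothelial cadherin gene *Cdh5* (0.251, from 8.57 TPM in the atria to 109 in the OFT library) and *Alg2* (0.256). *Gja5* lay next to *Arntl* (0.337), *Myoz1* (0.345) and *Acvr2a* (0.373), and *Gja1* next to *Gtf3c1* (0.464) and *Mthfd2l* (0.632). *Nppa* lay next to *Cpne5* (0.640), *Tenm4* (0.784) and the ephrin receptor gene *Epha3* (0.822), and *Cited1* next to the myoglobin gene *Mb* (0.874), *Ehbp1* (1.11) and *Fgf13* (1.38). *Pln* was further from its nearest, *Adprhl1* (1.02), *Zfp472* (1.23) and *Phactr3* (1.35), and *Nppb* furthest, from *Cstb* (1.81), *Ndufaf2* (1.99) and *Fam92a* (2.17). Among the members *Gjc1* and *Pam* were most alike, with a distance of 0.925.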

How the data were processed

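Tag-seq libraries of 5 pooled tissues were analysed, 1 for each group, as named by the labels. The deposited values are counts: the authors listed each 17-base tag type with its read number, after leaving out those read 5 times or fewer, and the submitters' processing notes name the genome build mm9. Tags were matched here in sense to every NlaIII site of 33363 RefSeq-linked GENCODE M21 transcripts on GRCm38, with 20 adenines added at the transcript end, which gave 315529 virtual tags, 308949 of them of 1 gene, for 23207 genes. Between 70.7% and 74.5% of listed tags matched 1 gene and were summed per gene. Tag types matching several genes were left out.

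Libraries were compared by edgeR's exact test, two-sided (version 4.0.16 in R 4.3.3), at the dispersion of 0.12 that the study's methods give. Library sizes were the listed totals, and the scaling inside the study's own test is not given in the sources used here. P-values were adjusted by Benjamini-Hochberg over all genes with a tag in the compared libraries, and genes with an adjusted p under 0.05 were called. The atria and ventricles were summed as chambers. A quasi-likelihood or DESeq2 test has no residual degrees of freedom with 1 library per group. The tests were tried on simulated data, and 19 alternative settings were planned. A GC offset, alone and with TMM, was chosen after seeing the data. DESeq2 1.42.0 gave size factors only. Other tools were Python 3.11.15, numpy 2.4.6, pandas 2.3.3, scipy 1.17.1 and matplotlib 3.10.9.

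The genes and lists were chosen with earlier results of these data known. All 9 genes are named, from the pathway lists the genes with the 3 smallest p-values per comparison, and *Tbx2*, *Tbx3*, *Tbx5*, *Tbx20*, *Nkx2-5*, *Hey1*, *Hey2*, *Smpx* and *Twist1*. The cell type marker lists are given by counts and sums in place of names. Like patterns are the 3 nearest genes. Of the genes these rules name, 2 are not reported here. The values of *Npr1*, *Corin*, *Pkp2*, *Cdh2* and *Atp2a2* were added after they were seen. A ratio against a library where a gene is not listed was not computed.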

Additional observations from a re-analysis of the deposited data

Results flagged for a closer look

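*Nppa* was picked out because the AVC and the OFT differed in their own exact test, with a log2 ratio of the OFT over the AVC of -3.34.

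Tags antisense to the genes, which no comparison used, were listed for 8 of the 9 genes. The 20 antisense tag types included 13 at the NlaIII site of a listed sense tag type. Over the 5 libraries they summed to 798 tags for *Gja1*, 263 for *Gja5*, 205 for *Gjc1*, 171 for *Nppa*, 40 for *Nppb*, 24 for *Cited1*, 19 for *Pln* and 7 for *Pam*. *Gja1* antisense tags were read 86 times in the AVC, 57 in the OFT library, 57 in the atria, 173 in the ventricular library and 425 in the null AVC, which is between 19.0 and 48.3 for every 100 sense tags. *Gja5* had 217 antisense tags in the null AVC against 132 sense tags, 17 in the ventricular library against 6, and 18 in the atria, where no sense tag was listed. *Gjc1* had 74 in the AVC, 91 in the OFT library, 40 in the null AVC and none listed in the chambers. *Nppa* had 53 in the AVC and 118 in the null AVC, and *Nppb* had none listed in the ventricles beside 15856 sense tags. There is no control library for this signal, and a tag type must be read more than 5 times to be listed.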

How the results depend on the processing

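Of 708 recomputed log2 ratios of the 9 genes under 19 planned settings and 2 added ones, 635 kept their direction and side of the threshold, 32 lost a call, 17 gained one and 24 changed sign. No paired analysis was possible because each group has 1 library, and for the same reason no replicate could be left out. In the AVC against the chambers, 4 genes were called higher and 3 lower, beside 4445 and 692 of 12503 genes. With TMM, with DESeq2 size factors and with the GC offset and TMM 2 were higher, beside 2425, 2383 and 3039. With the GC offset and TMM 5 were lower, beside 1673, and against the atria alone 1 was lower, beside 618 of 12325. At a dispersion of 0.4, 0 and 0 were called, beside 597 and 37 of 12503. In the OFT 2 were higher and 3 lower, beside 4252 and 843 of 12451 genes. With TMM or DESeq2 size factors 1 was higher, beside 2495 and 2475. Against the atria alone 1 was lower, beside 700 of 12237. At a dispersion of 0.4, 0 and 0 were called, beside 697 and 83 of 12451. Between the ventricles and the atria 2 were higher and 0 lower, beside 371 and 300 of 10705 genes. The higher count became 5 with the GC offset (981 of all genes) and 5 with tag types read over 10 times (942 of 9291). It became 4 at a dispersion of 0.05 (1062), 4 at an unadjusted p (1189) and 0 at a dispersion of 0.4 (0). With the GC offset and TMM 1 was lower (961). Between the OFT and the AVC 0 were higher and 1 lower, beside 156 and 236 of 12541 genes. The higher count became 1 with the GC offset (522 of all genes), with the offset and TMM (542) or at an unadjusted p (655). The lower count became 2 with tag types over 10 tags (639 of 11441) and 0 at a dispersion of 0.4 (0). In the null AVC 0 were higher and 1 lower, beside 656 and 510 of 12963 genes. The higher count became 1 with the GC offset and TMM (938 of all genes), and 2 at a dispersion of 0.05 (1828) or an unadjusted p (1539). The lower count became 2 without tags beginning with T (904 of 11618), where *Gjc1* had no listed tag in the null. It became 0 at a dispersion of 0.4 (0). The changed calls at other dispersions follow from the assumed spread, and the cause of the others was not tested. The shift from scaling to cardiomyocyte genes was -0.26, -0.45, -1.17, -0.19 and -0.15 in the order of the comparisons with the 8 genes and -0.90, -0.98, -0.98, -0.0802 and 0.19 with the longer list.

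Signs changed as follows. Against the atria alone, *Pln* was at 3.16 (AVC) and 3.84 (OFT) and *Cited1* at 0.0712 in the AVC, where the atria hold the lower level of both. With tags of several genes counted, *Gja5* was at -0.95 in the AVC, -0.37 in the OFT, 0.58 between the OFT and the AVC and -0.34 in the null, because of the adenine-rich tag type. In the OFT against the chambers, *Nppa* was at -0.46 with TMM, -0.48 with DESeq2 size factors, -0.052 per cardiomyocyte tag, -1.08 with the GC offset and -1.94 with the offset and TMM, and *Gja5* was at -0.036 with the last. Between the ventricles and the atria, *Nppa* was at -0.46 and *Pam* at -0.50 per cardiomyocyte tag, and *Pam* at -0.33 over all transcripts. Between the OFT and the AVC, *Gjc1* was at -0.0593 and *Pam* at -0.0295 per cardiomyocyte tag, *Gjc1* at -0.0166 without tags beginning with T, and *Pam* at -0.0125 after thinning. In the null AVC, *Pln* was at 0.0788 with TMM and 0.0737 with DESeq2 size factors, and *Pam* at -0.0611 per cardiomyocyte tag and -0.13 with the 3'-most sites. None of the genes so listed was called in the main comparison where its sign changed, except *Cited1* and *Gja5* in the AVC. *Sln* and *Gja5* were near the listing limit, so depth limits their values.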

Other observations

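Some pathway genes were among the 3 smallest p-values of their list in a comparison without passing edgeR's exact test. Between the ventricles and the atria these were *Mme*, a peptidase that degrades natriuretic peptides (log2 2.01, adjusted p = 0.138), the connexin gene *Gja4* (log2 2.19, adjusted p = 0.163), the desmoplakin gene *Dsp* (log2 1.01, adjusted p = 0.532) and *Scg2*, listed in 1 of these libraries. Between the OFT and the AVC they were *Fhl2* (log2 -2.01, adjusted p = 0.127), *Cadps* (log2 -1.66, adjusted p = 0.408), and *Ckm* and *Gjd3*, each listed on 1 side, and *Gjd3* was also among them between the AVC and the chambers. Between the null AVC and the AVC they were *Hopx* (log2 2.23, adjusted p = 0.0584), *Casq2* (log2 -2.11, adjusted p = 0.068), *Irx5* (log2 -1.82, adjusted p = 0.131), the clearance receptor gene *Npr3* (log2 -0.89, adjusted p = 0.463), and *Gja6* and *Scg5*, each listed on 1 side.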
